A study of Mus musculus with 2 samples.

Results

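Cytoplasmic ribosomal proteins are the protein components of the 60S and 40S subunits that together translate mRNA in the cytosol. The genes were chosen by name, namely every non-control probe of a whole-genome mouse array whose gene name begins with Rpl or Rps and a number, or is Rplp0, Rplp1 or Rplp2, leaving out the Rps6k kinases. This gave 142 of 41174 probes, under 83 of 21389 gene names. Of these names, 51 were assigned by prefix to the 60S subunit (Rpl) and 31 to the 40S subunit (Rps). The remaining name, Rps19bp1, is a binding partner of Rps19 and no ribosomal protein. After the filters described below, 74 of the 83 genes were compared, among 6201 genes in all.

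The RNA came from mouse dorsal skin. The Lgr6-high cells were sorted for bright green fluorescent protein from Lgr6-EGFP-ires-CreERT2 knock-in mice. The Lgr5-high cells were sorted in the same way from Lgr5-EGFP-ires-CreERT2 knock-in mice. In both lines the reporter stands under the promoter of the receptor gene it was knocked into, so a sort holds whichever cells of the skin use that promoter most. Each sort combined 3 mice, and 150 ng of total RNA was amplified linearly and labelled. The 2 samples were two-colour arrays that each held both populations. Array 1 had Lgr6-high RNA in Cy5 with Lgr5-high RNA in Cy3, and array 2 had the reverse labelling. Separate RNA pools for the arrays are not stated, so the pair counts as 1 replicate and genes were called by a rule of size. Each SD below is over the 2 arrays and measures technical spread, as do the limma p-values given as an alternative.

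Each ribosome carries a single copy of nearly every ribosomal protein, and cells make the proteins in matched amounts. Their genes are among the most strongly transcribed of a growing cell, and their mRNAs begin with a pyrimidine-rich stretch, the 5′ terminal oligopyrimidine tract, through which mTOR signalling adjusts their translation. In mouse skin the family is known from dark-skinned strains that carry mutations in Rps19 or Rps20. A few members also act outside the ribosome, as Rpl5 does when it binds Mdm2 and stabilises p53.

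The probes are 60-base oligonucleotides, and 4 of them are shown. The Rpl5 probe gave the highest mean processed ratio among the probes that represent the compared genes. The probes of Rplp0 and Rps2 are not the brightest ones that represent these genes below, but further probes of the same mRNAs whose ratios are set beside them. In each probe at least 1 reading frame on the printed strand was free of stop codons.
Rplp0 (mm9 chr5:116010930-116010989, plus strand): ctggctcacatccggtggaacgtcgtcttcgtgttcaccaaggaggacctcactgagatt
Rplp0 (mm9 chr5:116011423-116011482, plus strand): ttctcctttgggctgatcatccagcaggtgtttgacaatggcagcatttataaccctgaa
Rpl5 (mm9 chr5:108332860-108333767, plus strand, a span longer than the probe): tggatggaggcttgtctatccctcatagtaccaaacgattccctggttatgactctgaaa
Rps2 (mm9 chr17:24857612-24857671, plus strand): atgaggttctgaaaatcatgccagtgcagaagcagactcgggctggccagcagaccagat
Between compared probes of different member genes, the longest stretch of shared letters was 14 bases. The files placed the compared probe on another chromosome than the RefSeq gene for 2 of the 74 genes, Rpl10 (chromosome 8 in place of X) and Rpl12 (chromosome 10 in place of 2). Ribosomal protein genes have many processed pseudogenes, so the transcript behind those probes is uncertain.

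Start-site sequence was looked at because the pyrimidine tract is a known feature of these mRNAs. RefSeq promoter entries (build GRCm38.p6) matched 63 of the 83 gene names. An unbroken run of at least 8 C or T on the coding strand lay within 50 bases before to 50 bases after the annotated start in 53 of these 63 genes (84.1%), against 39.3% of 27025 genes of all kinds. The median longest run was 10 bases in the family and 7 bases in all genes. The windows of 30 bases below belong to the 5 lowest and the 5 highest genes of the comparison by processed signals, with the longest run in capitals.
Rpl7l1 (chr17:46782671-46782700, minus strand): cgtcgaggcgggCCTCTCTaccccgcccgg
Rpl31 (chr1:39367824-39367853, plus strand): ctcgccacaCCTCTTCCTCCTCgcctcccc
Rpl41 (chr10:128549119-128549148, minus strand): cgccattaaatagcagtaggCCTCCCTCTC
Rpl14 (chr9:120571501-120571530, plus strand): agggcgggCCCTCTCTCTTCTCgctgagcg
Rps2 (chr17:24720083-24720112, plus strand): aaattgtcccttccgcggcgCCTCCCTCTT
Rps3a (listed as Rps3a1, chr3:86142623-86142652, minus strand): acgtagacggcgCTCCCCgcccggctcgcg
Rpl10 (chrX:74270836-74270865, plus strand): cgtgagcaggcgtgggagcgTCTCTTTTCC
Rpl36al (chr12:69184020-69184049, minus strand): gctctgttcgTCCCTTTCCTgttcggcgcg
Rplp0 (chr5:115559466-115559495, plus strand): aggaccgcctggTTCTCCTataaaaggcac
Rpl5 (chr5:107900497-107900526, plus strand): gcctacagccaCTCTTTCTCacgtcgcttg
The runs of Rpl41, Rps2 and Rpl10 end where the searched window ends, at offsets of 40 to 49 bases from the annotated start. Those of Rpl7l1, Rpl31 and Rpl5 lie wholly before that start. A counted run may thus lie anywhere in the window and need not be the tract at the 5′ end of the mRNA. The 46 compared genes with a run of 8 or more had a median log2 ratio of -0.09 by processed signals, and the 9 compared genes without one had a median of 0.10. No test of this difference was made.

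Of the whole table, 43379 of 45018 spots per array were probe spots, Cy3 was well above background at 31.6% and 33.3% of them on arrays 1 and 2, and Cy5 at 15.3% and 16.2%. No probe spot was saturated. Lgr5, the reporter gene of one sort, was lower in the Lgr6-high cells, at a mean log2 ratio of -1.83 ± 0.12 by loess and -4.26 ± 0.70 by processed signals. Its Lgr6-high signal was above background on only 1 array, so the size is uncertain, and Lgr6 was not among the compared genes. Hair follicle bulge markers were called lower in Lgr6-high cells for 5 of 6 genes, where 4.77% of all genes were by loess and 15.5% by processed signals. Lgr5 itself, used for the sort, is 1 of these 5, and Lgr5 and Tcf7l1 entered only through Lgr5-high cells. Keratinocyte markers were called higher for 3 of 7 by loess and 6 of 7 by processed signals, where 7.27% and 15.4% of all genes were. Krt1, called in both, entered only through Lgr6-high cells, so its size is uncertain. Most compared markers of other skin cells were called lower in the Lgr6-high cells by loess, where 4.77% of all genes were. These were 4 of 5 compared fibroblast genes, 3 of 4 of endothelial and mural cells, 2 of 2 of red cells and 1 of 1 of melanocytes. All 5 fibroblast genes were below 0 on both arrays, and all 5 were called lower by processed signals, where 15.5% of all genes were. However, these 5 genes, Egfl7, Ramp2 and the melanocyte gene Dct entered the comparison only through Lgr5-high cells, where they were brighter. Their calls are thus no support for a difference, and the sizes are uncertain. Tagln and the 2 red cell genes were above background in both populations on both arrays. The remaining mural gene, Acta2, went the other way, at 0.60 and 1.19 on the arrays by loess, and was called higher by processed signals. None of 6 leukocyte markers was bright enough to be compared. The share of such cells in each sort was not measured, and its part in the values below was not tested. Equal amounts of RNA were labelled, so each ratio is relative to the rest of the mRNA, and the amount per cell was not measured. In sorted bulk RNA, fewer cells of a type and less RNA per cell cannot be told apart.

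Hardly any gene of the family differed between the populations by the size rule. A gene was called different at a mean log2 ratio of Lgr6-high over Lgr5-high of at least 1 in size (2-fold), provided that both arrays separately reached 0.5 with that sign. By loess, 0 of the 74 genes were called higher and 0 lower, where 12.0% of all genes were called, 7.27% higher and 4.77% lower. By the scanner software's dye-normalised processed signals, 0 of the 74 were called higher and 1, the Rpl7 paralog Rpl7l1, was called lower, where 30.9% of all genes were called, 15.4% higher and 15.5% lower. With limma on the loess ratios, 0 of 74 passed an adjusted p under 0.05 with a 2-fold change, against 12.3% of all genes. Without the fold 2 passed, Rps27l and Rpl23a, against 23.9% of all genes, and 8 passed an unadjusted p under 0.05, against 35.7%. With limma on the processed ratios 1 of 74 passed the first criterion, Rpl7l1 again (adjusted p = 0.0284), against 30.0% of all genes. Without the fold it was again the 1 gene, against 33.7%, and 5 passed the unadjusted one, against 46.3%. These p-values rest on 2 hybridisations of what may be the same RNA and are no test across animals. Rpl7l1 entered the comparison only through Lgr5-high cells, where it was brighter, and it left the comparison when both populations had to be above background, so its call is no support for a difference in the family.

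By processed signals the 74 genes lay in a narrow band. Their median log2 ratio was -0.05 on array 1 and -0.09 on array 2, and the median of the array means was -0.06, with quartiles of -0.23 and 0.07. The mean ratio was within 0.5 of 0 for 67 genes (90.5%), against 40.7% of all 6201 genes. The median SD between arrays was 0.15 in the family and 0.27 over all genes. A total of 10 genes were above 0 on both arrays, 29 were below 0 on both, and the others changed sign between arrays. The 44 genes of the 60S subunit had a median of -0.10 and the 29 genes of the 40S subunit a median of -0.05, and this difference was not tested.

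**Figure D1:**
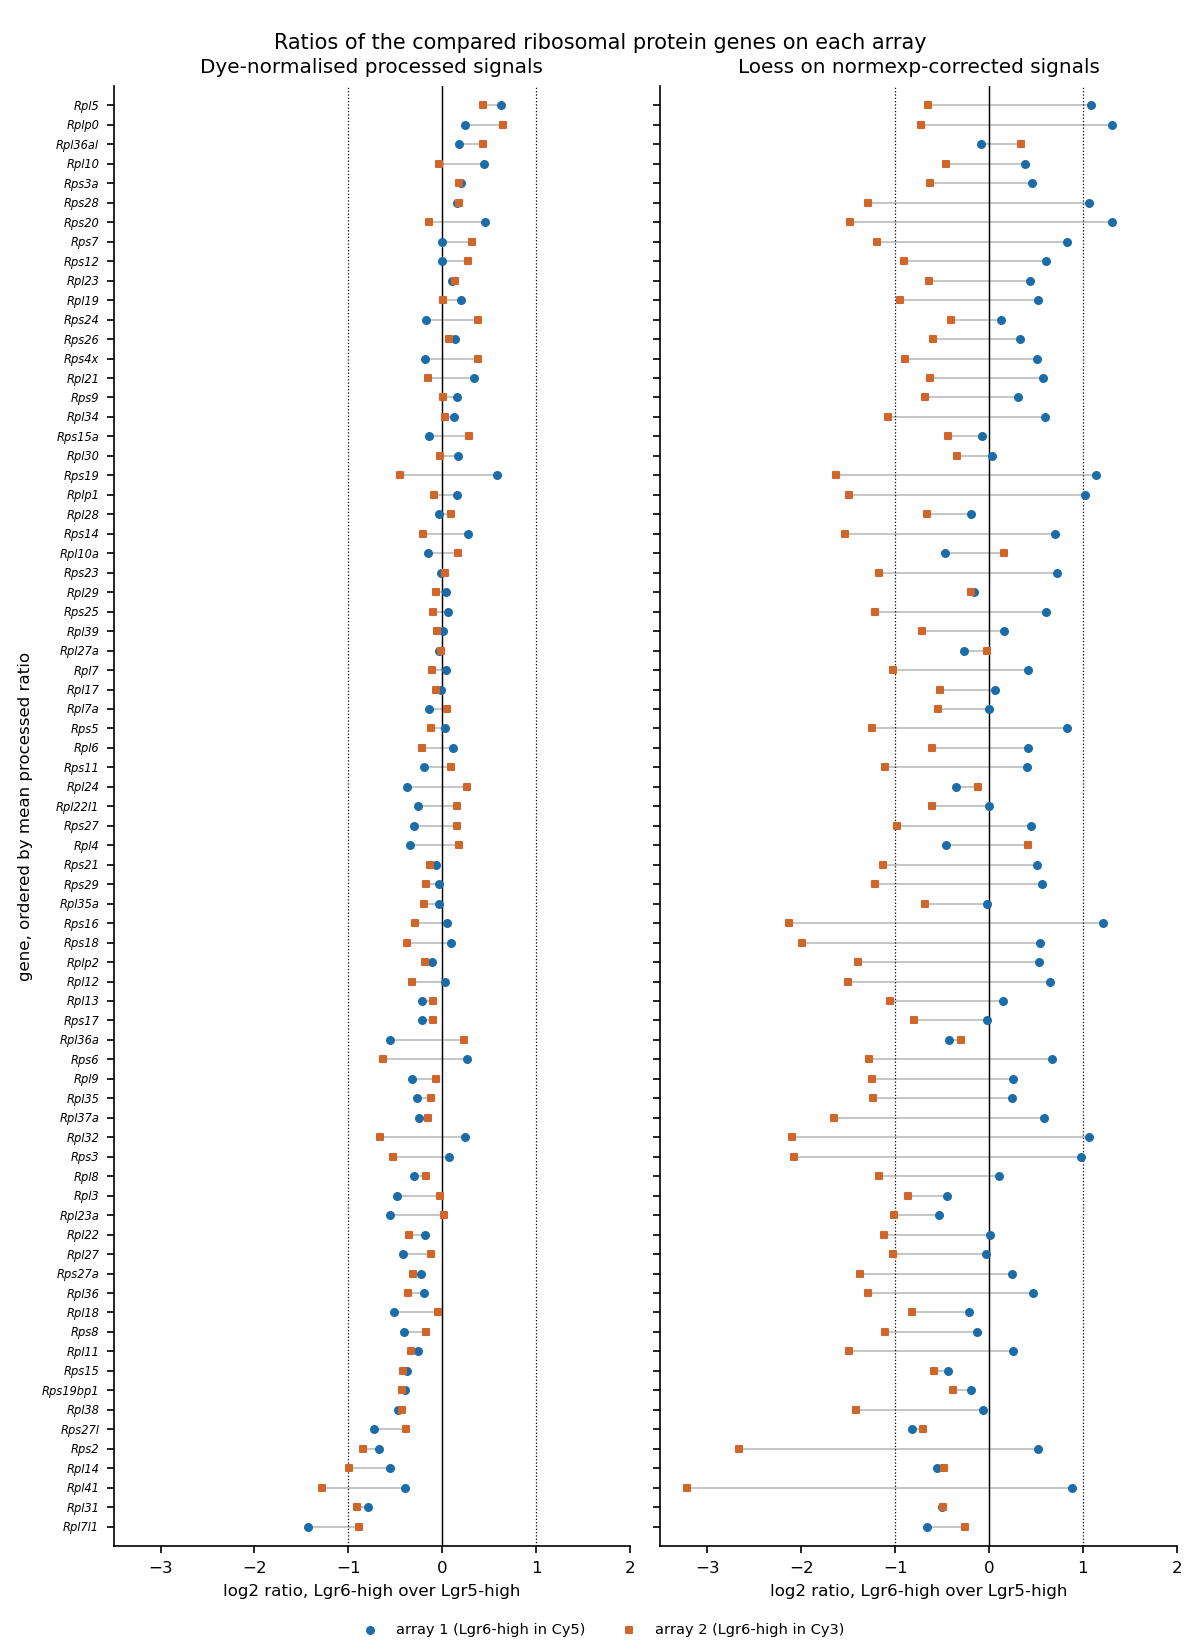
Log2 ratio of Lgr6-high over Lgr5-high of the 74 compared genes on array 1 (blue circles) and array 2 (orange squares), by processed signals (left) and by loess (right), with a grey line joining both arrays of a gene. Dotted lines mark a 2-fold difference. By processed signals 67 genes have a mean within 0.5 of 0, and by loess 50 genes lie above 0 on array 1 but only 3 on array 2.

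The large-subunit genes held both ends of the range. Rpl5, which carries 5S rRNA into the subunit, had processed signals of 202259 in Lgr6-high cells and 131074 (Lgr5-high) on array 1, and 228914 (Lgr6-high) and 169037 (Lgr5-high) on array 2. Lgr6-high cells were thus brighter on both arrays, at a log2 ratio of 0.53 ± 0.13, or 1.45-fold. This was the highest of the compared genes by processed signals, though 1 further probe of Rplp0 gave 0.54. Rpl36al, a paralog of Rpl36a, followed the same direction with signals of 8615 (Lgr6-high) and 7606 (Lgr5-high) on array 1, and 9256 (Lgr6-high) and 6854 (Lgr5-high) on array 2 (0.31 ± 0.18). Rpl10, whose protein joins late in 60S maturation, stood at 0.44 on array 1 and -0.03 on array 2, and its second probe, placed on chromosome X, at 0.14 and 0.06. Rpl4 and Rpl21, among the highest means by loess, had loess ratios of opposite sign on the arrays, at -0.46 and 0.42 for Rpl4 and at 0.58 and -0.63 for Rpl21. By processed signals Rpl4 averaged -0.08 ± 0.38 and Rpl21 0.10 ± 0.34.

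Rplp0, the base of the ribosomal stalk and a common reference gene in quantitative PCR, was brighter in Lgr6-high cells on both arrays by all 3 of its probes. Its brightest probe gave 525867 (Lgr6-high) and 442753 (Lgr5-high) on array 1, and 439310 (Lgr6-high) and 280764 (Lgr5-high) on array 2, for a ratio of 0.45 ± 0.28. The first probe printed above gave 0.54 ± 0.41 and the second 0.42 ± 0.18. The first of these was spotted 10 times on each array, of which 9 spots on array 1 and 7 on array 2 carried no outlier mark. Its processed ratio averaged 0.83 with an SD of 0.07 over spots on array 1, and 0.25 with an SD of 0.05 on array 2. Spots within an array thus agreed far more closely than the arrays did with each other. The stalk proteins that bind Rplp0 had ratios nearer 0: Rplp1 stood at 0.16 on array 1 and -0.08 on array 2, and Rplp2 at -0.11 and -0.19.

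At the low end, Rpl7l1 was dim, with signals of 308 (Lgr6-high) and 826 (Lgr5-high) on array 1, and 542 (Lgr6-high) and 1005 (Lgr5-high) on array 2. It was lower in Lgr6-high cells on both arrays, at -1.16 ± 0.38. It was the only compared member that was not well above background in both populations on both arrays, since the Lgr6-high signal passed on only 1 array, so the size of its ratio is uncertain. By loess its ratio was -0.46 ± 0.28 and missed the rule. Rpl7, after which it is named, stood at -0.04 ± 0.10.

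Rpl31 and Rpl14, both 60S proteins, were also dim and lower in Lgr6-high cells on each array. Rpl31 gave 1153 (Lgr6-high) and 1995 (Lgr5-high) on array 1, and 1347 (Lgr6-high) and 2521 (Lgr5-high) on array 2, a ratio of -0.85 ± 0.08. Its second, dimmer probe ran the same way at -2.38 on array 1 and -0.86 on array 2, so the size is uncertain while the direction was shared. Rpl14 gave 1317 (Lgr6-high) and 1931 (Lgr5-high) on array 1, and 1118 (Lgr6-high) and 2228 (Lgr5-high) on array 2, a ratio of -0.77 ± 0.31. Loess gave ratios of nearly equal size on both arrays for these genes, -0.50 and -0.48 for Rpl31 and -0.55 and -0.48 for Rpl14.

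Rpl41, the smallest ribosomal protein, was bright and unsteady. Its signals were 331981 (Lgr6-high) and 436268 (Lgr5-high) on array 1, and 266500 (Lgr6-high) and 649097 (Lgr5-high) on array 2, for a processed ratio of -0.84 ± 0.63. By loess it stood at 0.88 on array 1 and -3.21 on array 2, the widest gap of the family. Rpl38, known for the tail-short mouse, was at -0.47 and -0.43 by processed signals, and by loess at -0.07 and -1.41. Rpl23a reached an adjusted p of 0.0305 with limma on the loess ratios, yet its processed ratios were -0.55 on array 1 and 0.02 on array 2.

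Among the small-subunit genes Rps2, which lines the entry of the mRNA channel, had the lowest processed ratio. Its signals were 391398 (Lgr6-high) and 624422 (Lgr5-high) on array 1, and 378573 (Lgr6-high) and 678363 (Lgr5-high) on array 2, at -0.76 ± 0.12. The second passing probe, printed above, gave -0.26 on array 1 and -0.66 on array 2, lower on both arrays but smaller in size. Rps27l, a paralog of Rps27 known in human and mouse cells as a p53 target, gave 11471 (Lgr6-high) and 18960 (Lgr5-high) on array 1, and 13616 (Lgr6-high) and 17813 (Lgr5-high) on array 2, at -0.56 ± 0.24. By loess it stood at -0.82 and -0.70, and limma on the loess ratios gave an adjusted p of 0.028 without a 2-fold change. Rps27 itself stood at -0.07 ± 0.33 by processed signals.

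The genes of the dark-skinned strains showed no shared direction on the arrays. Rps19 had signals of 326795 (Lgr6-high) and 217955 (Lgr5-high) on array 1, but 240188 (Lgr6-high) and 327835 (Lgr5-high) on array 2, so its ratio changed sign, at 0.58 and -0.45. Rps20 stood at 0.46 on array 1 and -0.14 on array 2. Rps6, the substrate of S6 kinase, stood at 0.26 and -0.63. All 3 means were within the SD between arrays, and a direction cannot be given for any of them. Rps3a averaged 0.19 ± 0.01, but the second Rps3a probe averaged -0.17 ± 0.07. Rps19bp1 stood at -0.39 and -0.43.

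The remaining paralogs lay close to the member they are named for or within the spread of the arrays. Rpl22l1 averaged -0.05 ± 0.29 and Rpl22 -0.27 ± 0.12. Rpl36a averaged -0.16 ± 0.56 by its brightest probe, against 0.31 ± 0.18 for Rpl36al, a gap within the spread of the arrays. The X-linked Rps4x averaged 0.10 ± 0.40. Rpl3l, the paralog used in striated muscle, and Rpl39l, the paralog known from testis, were not well above background in either population, so they have no ratio here.

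Another 7 names, among them Rpl13a, Rpl15, Rpl26, Rpl37, Rps10 and Rps13, dropped out because the scanner software had marked their spots as outliers. With those spots kept, Rps13 had processed ratios of -0.35 on array 1 and 0.39 on array 2, and Rpl26 of 0.08 and -0.26. Rpl13a, at 0.24 and 0.35, and Rpl15, at -0.24 and -0.27, had the same sign on both arrays and lay farther from 0 than Rpl37 and Rps10, which also kept their sign. None of these 6 reached the size rule.

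Loess spread the same genes far apart, and in opposite directions on the arrays. Its median was 0.32 on array 1 and -0.97 on array 2, and the median of the array means was -0.30. The ratio was above 0 for 50 genes on array 1 and for 3 on array 2. No gene was above 0 on both arrays and 21 were below 0 on both, so that 28.4% kept their sign, against 72.5% of all genes. Rps16, at 1.22 on array 1 and -2.13 on array 2, Rps3, at 0.98 and -2.07, and Rpl32, at 1.07 and -2.10, are examples. Had array 1 been the only array, 8 members would have been called higher and 0 lower, and with array 2 alone 0 would have been called higher and 36 lower. Over all 6201 genes, array 1 alone gave 434 higher and 315 lower, and array 2 alone gave 611 and 473. The members' median SD between arrays was 0.88, or far above that of their processed ratios.

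**Figure D2:**
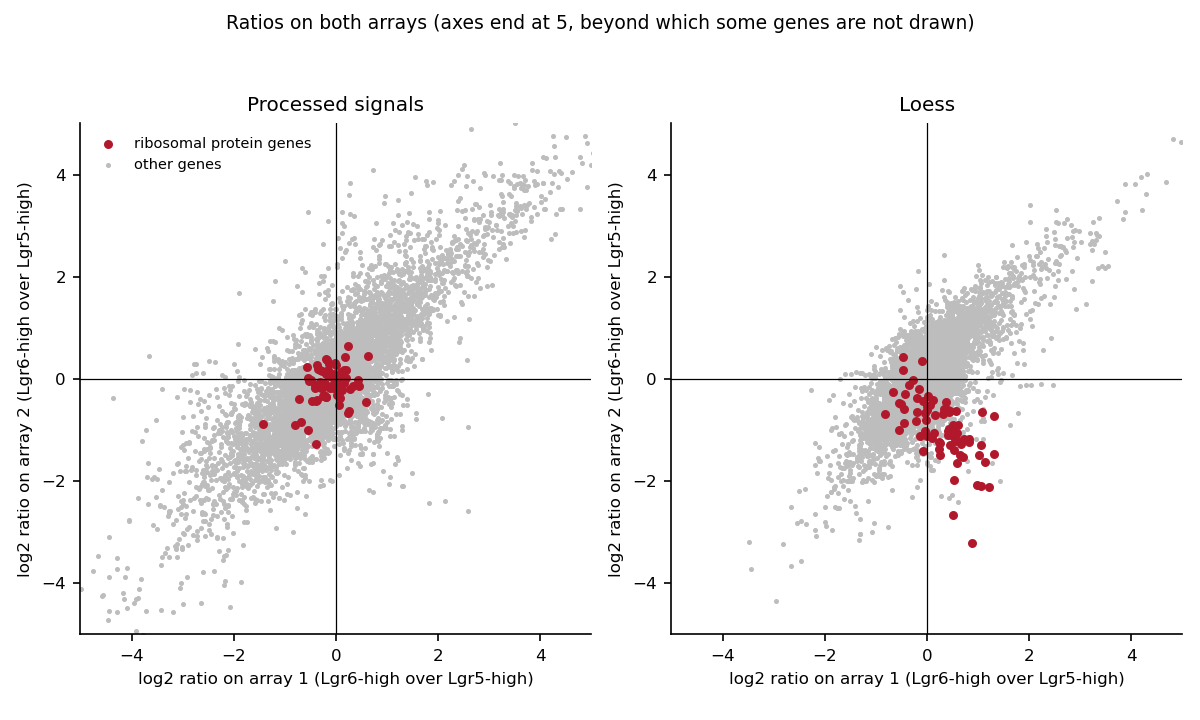
Log2 ratio on array 2 against array 1 for the 74 ribosomal protein genes (red) and the other 6127 compared genes (grey), by processed signals (left) and loess (right). By loess the family runs downward to the right (Pearson r of -0.623 over the 74 genes) while all genes together run upward (r of 0.749), and by processed signals the family sits near 0 (r of 0.372, against 0.843 for all genes).

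The gap between the arrays widened with spot brightness. Brightness depends on the probe as well as on the mRNA, so it does not rank the genes' levels, but 32 of the 63 brightest genes in the comparison were members, as were 58 of the brightest 311. Among the 31 members with a mean log2 intensity of at least 14, the median loess ratio was 0.61 on array 1 and -1.29 on array 2, with 30 genes above 0 on array 1 and 0 on array 2. The 22 members from 12 to 14 had medians of 0.20 and -0.81, and the 21 dimmer members -0.19 and -0.48. By processed signals the same 3 classes had medians of -0.01 and -0.14, -0.10 and -0.04, and -0.15 and -0.06. Across the 74 genes, which share both arrays, the loess ratio correlated with brightness at r of 0.745 on array 1 and -0.778 on array 2, and the processed ratio at 0.356 and 0.077.

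**Figure D3:**
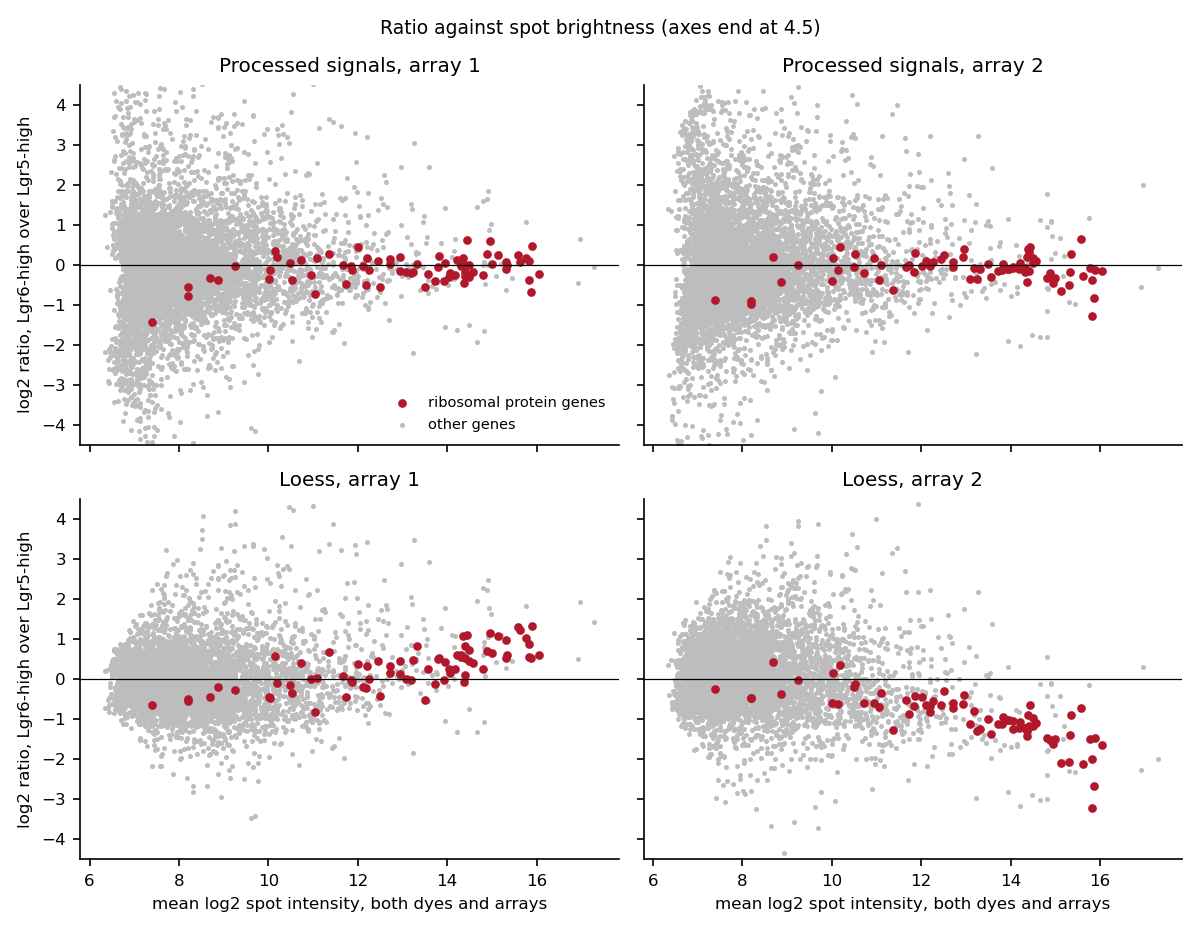
Log2 ratio of Lgr6-high over Lgr5-high against mean log2 spot intensity on each array, for ribosomal protein genes (red) and other compared genes (grey), by processed signals (top) and loess (bottom). Above an intensity of 14 the loess ratios of members lean to positive values on array 1 (median 0.61) and to negative values on array 2 (median -1.29), and other genes as bright lean with them.

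Other bright genes showed the same shift. The 30 other genes with an intensity of at least 14 had median loess ratios of 0.87 on array 1 and -1.51 on array 2, larger than those of the members. Krt14, a keratin of basal keratinocytes, stood at 2.24 and -0.10 by loess, and at 1.65 and 1.06 by processed signals. Processed ratios of other bright genes were less often close to 0, a difference that was described and not tested. Of the 159 other genes at least as bright as the lower quartile of the members, 47.8% lay within 0.5 of 0, 34 were called higher and 10 lower, against 90.5%, 0 and 1 of the members.

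Another normalisation, loess fitted only to spots well above background and added after the data were seen, gave the members medians of -0.15 on array 1 and -0.15 on array 2. It called 0 members, and 68 of the 74 had a mean within 0.5 of 0, against 66.1% of all genes. Leaving the ribosomal protein probes out of the main loess did not bring the arrays together, at medians of 0.58 and -1.31. In all 3 normalisations 14 members were below 0 on both arrays and none was above 0 on both. By the main loess alone no member was above 0 on both arrays, and only 3 were above 0 on array 2. The absence of members above 0 was thus fixed by the main loess, and its contrast with the 14 is no support for a lower family. Of the 14, Rpl14, Rpl31, Rpl7l1, Rps15 and Rps27l were below -0.2 on each array in each normalisation. Rpl5 and Rplp0 were above 0 on both arrays by processed signals and by loess on spots above background, where Rpl5 stood at 0.44 and 0.44 and Rplp0 at 0.35 and 0.54, but not by the main loess, where Rpl5 stood at 1.09 and -0.65.

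**Figure D4:**
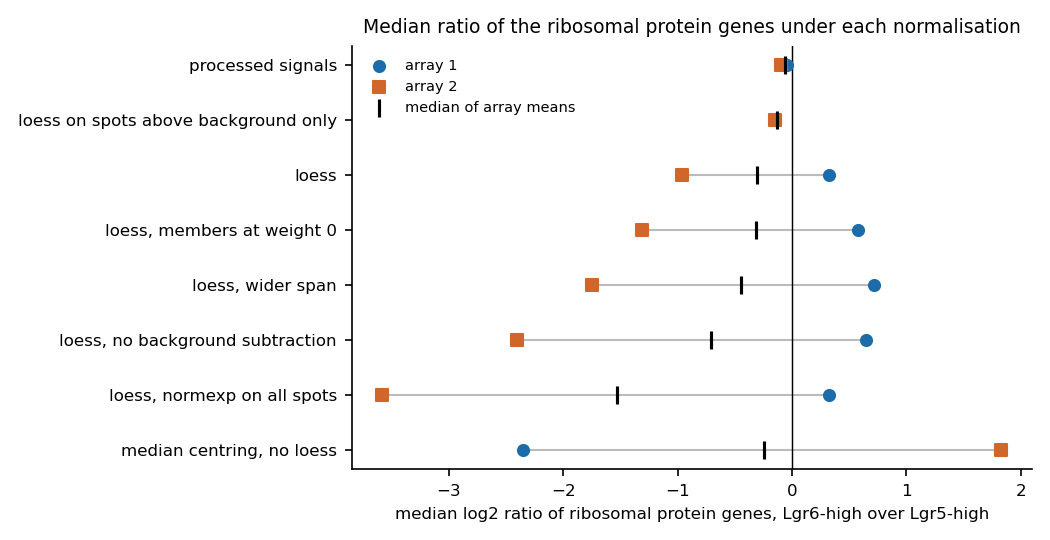
Median log2 ratio of the ribosomal protein genes on array 1 (blue circle) and array 2 (orange square) under 8 normalisations, with the median of the array means as a black tick. Both arrays lie near 0 by processed signals (-0.05 and -0.09) and by loess on spots above background (-0.15 and -0.15), and they lie apart under the others.

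The other genes of the pathway were taken from fixed lists. Cytoplasmic ribosomal proteins whose names fall outside the rule also lay near 0: by processed signals Rpsa averaged -0.26 ± 0.49, Fau 0.11 ± 0.14 and Rack1 0.00 ± 0.41, and none of these 3 was called. Of 18 further mRNAs with a terminal oligopyrimidine tract, mostly translation factors, 15 were compared and 0 called, with a median of -0.05 by processed signals. Within that list Eef2, the elongation factor that moves the ribosome along, averaged 0.92 ± 0.80, and Eef1g, a subunit of the factor that reloads Eef1a, averaged -0.61 ± 0.04.

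Mitochondrial ribosomal proteins, which build the separate ribosome of that organelle, lay lower. By processed signals the 64 compared genes had a median of -0.67, 57 of them below 0 on both arrays, with 0 called higher and 13 lower, where 15.5% of all genes were called lower. By loess the median was -0.41 with 0 called higher and 5 lower, where 4.77% of all genes were called lower, so the lower position held on both scales, though these probes were dimmer (median log2 intensity 8.01, against 13.53 for the members). No test of the difference between the families was made.

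**Figure D5:**
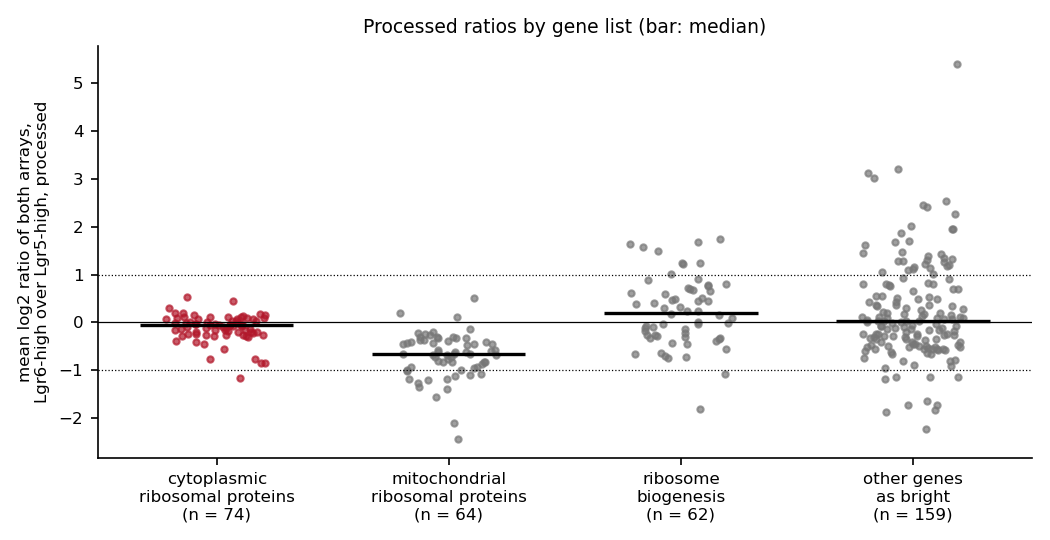
Mean log2 ratio of Lgr6-high over Lgr5-high by processed signals for 74 cytoplasmic and 64 mitochondrial ribosomal protein genes, 62 ribosome biogenesis genes and 159 other genes at least as bright as the lower quartile of the first list. Each point is a gene, bars are medians (-0.06, -0.67, 0.20 and 0.02), dotted lines mark a 2-fold difference, and points are spread sideways only for legibility.

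Of 104 listed ribosome biogenesis genes 62 were compared, with 2 called higher and 1 lower by loess and 8 higher and 2 lower by processed signals. Each count is a smaller share than over all genes (7.27% and 4.77% by loess, 15.4% and 15.5% by processed signals), so the genes named next are single values. The list had a median of 0.11 by loess and 0.20 by processed signals, against -0.05 and -0.09 for all genes. This difference was not tested. Sbds, which releases Eif6 from the new 60S subunit, was higher in Lgr6-high cells at 1.13 ± 0.62 by loess and 1.64 ± 0.25 by processed signals. Eif6 itself was higher too, at 1.18 ± 0.24 and 1.5 ± 0.27. Tcof1, needed for rRNA transcription, was lower at -1.37 ± 0.35 and -1.81 ± 0.40. Ncl, the nucleolar protein nucleolin, was called by processed signals at 1.75 ± 1.41, with 0.75 on array 1 and 2.74 on array 2. Of 16 listed regulators of ribosomal protein synthesis 9 were compared. In both normalisations 2 of them were called higher and 1 lower, and the others were not called. Over all genes 12.0% were called by loess and 30.9% by processed signals, so the regulators named next are single values too. Myc, a transcription factor that drives ribosome production, was higher in Lgr6-high cells at 1.18 ± 0.22 by loess and 1.73 ± 0.06 by processed signals. Rheb, the activator of mTOR complex 1, was higher at 1.15 ± 0.16 and 1.47 ± 0.07. Eif4ebp1, a translation repressor that mTOR inactivates, was lower at -1.0 ± 0.03 and -1.03 ± 0.06. No ribosomal protein gene was called higher in either normalisation.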

How the data were processed

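For each array the authors deposited the scanner's table, with linear intensity values of every spot in both channels. Version 10.5.1.1 of Agilent Feature Extraction is named per the file headers and 9.5.3 per the submitters' processing notes. The same deposited tables hold background-subtracted, dye-normalised processed signals and their log10 ratio of Cy5 over Cy3, per the file headers with a lowess smoothing factor of 0.25. The authors' value table equals that log10 ratio, turned on array 2 to Lgr6-high over Lgr5-high, its column medians are 0, and no part of its scale or direction stayed unknown. Unturned, the scanner's log ratios correlated at -0.447 between the arrays, whose dyes were exchanged. Probe positions are on mm9.

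The main ratios were computed in R 4.3.3 with limma 3.58.1. Background was corrected with normexp (offset 50) fitted on spots without an outlier mark, then each array was normalised by loess (span 0.3, control spots at weight 0). Outlier-marked probe spots, 139 and 204 on the arrays, were left out. Log2 ratios were turned so that Lgr6-high is the numerator, and spots of a probe averaged. A probe entered if 1 population was well above background on both arrays, and a gene is its passing probe of highest mean log2 intensity. For 25 members with several passing probes, the means of the processed ratios differed by a median of 0.12 and at most 0.77 (Rpl31). The number of arrays limits the precision. Summaries used Python 3.11.15 with pandas 2.3.3 and numpy 2.4.6, and limma's lmFit and eBayes with Benjamini-Hochberg adjustment over all 6201 genes was an alternative that was tested on simulated data.

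Members named in the text were every called one, the 5 highest and 5 lowest means in each normalisation, the 5 widest gaps between arrays by loess, paralogs with the member they are named for, stalk proteins, Rps19, Rps20, Rps6 and Rps19bp1. Rpl12, Rps15 and genes given as examples of dropped spots or of bright keratins, and Acta2, were named after their values were seen, as were Eef2 and Eef1g. The members and lists were chosen with earlier results of these data known. Other genes were named through RefSeq accessions (GRCm38.p6), then symbols, then synonyms. Values of some listed genes are not reported here.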

Additional observations from a re-analysis of the deposited data

How the results depend on the processing

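The members called higher were 0 and those called lower 0 under median centring, loess without the members' probes, loess with a span of 0.7 and no background subtraction. The same held for both other filters on dim probes, the mean of probes, and limma on the loess ratios with a 2-fold change. It also held for loess on spots above background and for marked spots kept, both added after seeing the data. The processed signals and the authors' value table gave 1 called lower (Rpl7l1), as did limma on the processed ratios with a 2-fold change. Normexp fitted on all spots gave 2 called lower and moved the members' median to -1.53 in place of -0.30. With 1 array left out, the members called higher were 0 or 8 and those called lower 0 or 36, and the median was -0.97 or 0.32. Elsewhere the median ran between -0.71 (no background subtraction) and -0.06. Over all genes, 451 were called higher and 296 lower by loess, 958 and 959 by the processed signals and the authors' value table, 134 and 58 by median centring, 212 and 204 without background subtraction, and 124 and 151 with normexp on all spots. With 1 array left out they were 434 to 611 higher and 315 to 473 lower. Limma on the processed ratios, added after seeing the data, called 937 higher and 924 lower. Why the normalisations differ was not tested. Named members moved by more than their SD between arrays most often with normexp on all spots (16 of 30), then with the processed signals (6 of 30) and no background subtraction (5 of 30).

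No paired analysis was possible because each ratio is already a comparison within an array, which leaves no further pairing to add. Signal over background limits the dimmest members: Rpl7l1 stood at -0.46 by loess and -1.16 by processed signals.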
